A study of Mus musculus with 6 samples.

Results

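The cytosolic ribosomal protein genes were described in hippocampal RNA-seq of SD and CTR mice. A gene was a member if its symbol was Rpsa, Rplp0, Rplp1 or Rplp2, or was Rpl or Rps followed by a number and at most a short suffix. S6 kinase genes (Rps6k) and symbols that end as pseudogenes (-ps) were left out. By this rule, 81 of the 15423 genes in the deposited table were members. Going by symbol alone, 48 of these were assigned to the large subunit, its stalk included, and 33 to the small subunit. All 81 passed the filter on low counts, which kept 15345 genes. The rule uses symbols and no expression value, although it was chosen with earlier results of these data known.

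All mice were C57BL/6J. The 3 SD ("Short Day") mice, numbered 2, 5 and 6 in the labels, were conceived, born and reared under 8-h light and 8-h dark phases up to postnatal day 42. The 3 CTR mice, numbered 1, 2 and 5, lived under the standard 12-h light and 12-h dark phases. The methods of the study describe dissected hippocampi, whereas the extraction text in the labels speaks of cells and spheroids. The study asked how a disrupted light cycle during development changes the hippocampal transcriptome, with genes of translational control among its interests. The age, litter and time of day of these 6 mice at dissection were not given in the sources used here.

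Each cytosolic ribosome is built from a small subunit, which reads the messenger RNA, and a large subunit, which joins the amino acids. Ribosomal proteins are made in nearly equal numbers, and their messages are among the most abundant of a cell. Most of these messages begin with a cytosine and a run of pyrimidines, the 5′ terminal oligopyrimidine (TOP) tract, through which mTOR signalling controls how strongly they are translated. That control acts on translation, so it need not alter the amount of message, which is what RNA-seq counts. In neurons, ribosomes and messages of ribosomal proteins are also found in dendrites and axons.

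The TOP tract is shown first because it is the sequence feature these genes are known for. Start windows of the RefSeq annotation (GRCm38.p6, the build the reads were mapped to) were found for 60 of the 81 members, with 71 windows in all. A tract was defined as a C followed by at least 4 pyrimidines. It stood exactly at the annotated start in 13 of the 71 windows (18.3%), against 2.36% of the 15481 windows of genes in the deposited table. Within the first 50 bases a tract occurred in 85.9% of the member windows, against 49.1% of the windows of genes in the deposited table. These 9 genes were picked as examples. In their lines the last 6 bases before the annotated start come first, and the capitals mark the tract. The first 6 have their tract at the start. The last 3, which are among the members with the smallest p-values below, have none at the start. Their first such run begins at base 5 (Rps26), 2 (Rps27l) and 14 (Rplp0) counted from the annotated start. By their place these runs are not known to be TOP tracts.
Rps6, chr4:86857344-86857373, minus strand: tcgggcCTCTTTTTCgtgacgcctcccagg
Rplp2, chr7:141447645-141447674, plus strand: gtcttcCTTTCgccgccggacgccgccgag
Rpl15, chr14:18270963-18270992, minus strand: agccttCTTCCTTTCCTCTggcggcagcca
Rpl35, chr2:39005108-39005137, minus strand: cctttcCTCTTTCTCTCgaaccaggctgct
Rps10, chr17:27635221-27635250, minus strand: acgcccCTTCCTTTCCagcctccgcctcgg
Rps27, chr3:90213625-90213654, minus strand: ttcgctCCTTTCCggcggtgacgacctccc
Rps26, chr10:128626483-128626512, minus strand: gccgccggatCCTCTTTCgagtcttggctc
Rps27l, chr9:66946080-66946109, plus strand: cccgccgCCTCTatcccggaagttgctgag
Rplp0, chr5:115559461-115559490, plus strand: tttcgaggaccgcctggttCTCCTataaaa

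In several of these windows pyrimidines also stand just before the annotated start, so an annotated start a few bases off would count as no tract at the start. The windows, of 300 bases each, were searched on both strands for a pair of further motifs. The ETS-type motif CCGGAAG was in 35.2% of the member windows, against 15.0% of windows of genes in the deposited table. The YY1-type motif GATGGCGG was in 7.04% of member windows, against 3.00% of windows of genes in the deposited table. These are matches of letters and no measure of binding.

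The 6 libraries held 25755316, 29226675 and 34447082 counts in SD mice 2, 5 and 6, against 23300710, 24426831 and 30035148 in CTR mice 1, 2 and 5. CTR mouse 1 stood apart. Rn45s, the precursor of the large ribosomal RNAs, took 1.84% of its counts, against 0.164% to 0.231% in the other 5 libraries. Xist had 30044 counts in CTR mouse 5, against 0 to 20 elsewhere, and the Y-linked gene Ddx3y had 10 counts there, against 1652 to 3090 elsewhere. By these genes CTR mouse 5 was female and the other 5 mice were male, and in CTR mice sex cannot be told apart from that library. Markers of hippocampal principal neurons were present in all mice, with a summed level of 1416 to 1515 CPM in SD mice and 1403 to 1486 CPM in CTR mice. CPM is the usual scale of counts relative to library size, here with TMM factors. Because many results below rest on CTR mouse 1, fold changes and counts that moved without it are given both ways.

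Members together took 0.635%, 0.614% and 0.614% of all counts in SD mice 2, 5 and 6. They took 0.416%, 0.608% and 0.592% of all counts in CTR mice 1, 2 and 5. CTR mouse 1 was low and the other 5 mice lay close to each other. Summed over the 81 genes, the level was 6348, 6071 and 6126 CPM in the SD mice, against 4243, 6130 and 5841 CPM in the CTR mice. The means were 6182 ± 147 CPM in SD mice and 5405 ± 1017 CPM in CTR mice (standard deviation, n = 3 mice each), a log2 ratio of 0.19. The groups overlapped, since CTR mouse 2 was above SD mice 5 and 6. Without CTR mouse 1, and with scaling factors computed anew, the log2 ratio was 0.04. Bulk RNA cannot tell fewer cells of a type from less RNA per cell.

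Large and small subunits were both lowest in CTR mouse 1 and highest in SD mouse 2. The 45 large-subunit genes outside the stalk summed to 3239, 3100 and 3077 CPM in SD mice 2, 5 and 6, against 2223, 3104 and 3045 CPM in CTR mice 1, 2 and 5. The 33 small-subunit genes summed to 2584, 2492 and 2540 CPM in SD mice, against 1706, 2547 and 2346 CPM in CTR mice. The 3 stalk genes summed to 525, 479 and 509 CPM in SD mice, against 313, 480 and 450 CPM in CTR mice. Each of these sums was lowest in CTR mouse 1. In each class CTR mouse 2 was above at least 1 SD mouse, so the groups overlapped.

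**Figure D1:**
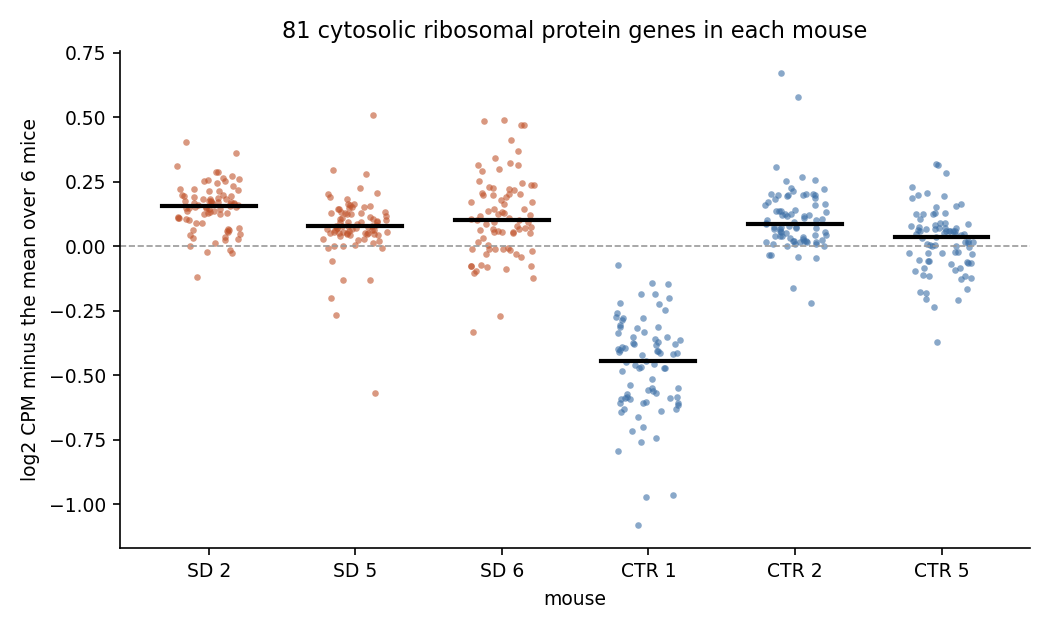
Each point is 1 of the 81 genes in 1 mouse, as log2 CPM minus that gene's mean over the 6 mice (y axis), with SD mice in red, CTR mice in blue and a black line at each median. The medians are 0.15, 0.08 and 0.10 in SD mice 2, 5 and 6, and -0.44, 0.09 and 0.03 in CTR mice 1, 2 and 5.

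The shift of CTR mouse 1 ran through nearly the whole family. It was the lowest of the 6 mice for 76 of the 81 members, against 22.9% of all tested genes. For 78 members it was below both other CTR mice. Its level was at the median 70.4% of the mean of CTR mice 2 and 5, a log2 difference of -0.51, with a range over members from -1.43 (Rpl34) to 0.01 (Rpl7a). The highest mouse was more scattered, and is given here with shares of all tested genes. It was SD mouse 2 for 32 members (16.1%), SD mouse 6 for 22 (17.3%) and SD mouse 5 for 9 (11%). CTR mouse 2 was highest for 13 members (14.3%), CTR mouse 5 for 5 (17.8%) and CTR mouse 1 for 0 (23.4%). Across mice of a group, the median standard deviation of a member's log2 CPM was 0.10 among SD mice and 0.30 among CTR mice, but 0.08 between CTR mice 2 and 5.

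Fold changes were tested gene by gene with the quasi-likelihood test of edgeR, fitted on all 15345 genes. The log2 fold change, SD over CTR, was above 0 for 80 of the 81 members, against 50.4% of all tested genes. Its median was 0.19, with a range from -0.26 (Rpl30) to 0.53 (Rpl41), whereas the median over all tested genes was 0.00. Standard errors of single members ran from 0.083 to 0.45, with a median of 0.15, so most of these differences were of the size of their error. Members share their mice, so 80 genes on one side are not 80 observations.

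None of the 81 members passed the cutoffs that the study set, which 2.98% of all tested genes passed. These cutoffs combine an unadjusted p of at most 0.05 with a log2 fold change of 0.58 or more in size, and the largest fold change of a member fell short of the second. At an unadjusted p of at most 0.05 without a fold cutoff, 8 members were higher in SD mice, against 4.65% of all tested genes. None was lower, against 3.68% of all tested genes. No member had an edgeR adjusted p under 0.05 (0% of all tested genes did), and the smallest adjusted p of a member was 0.55. DESeq2 gave 14 members higher at an unadjusted p of at most 0.05, against 4.09% of all tested genes, with 7 of the 8 among them, and likewise 0 at the cutoffs and 0 after adjustment.

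The count of 8 depended on single mice. Without CTR mouse 1 the median log2 fold change was 0.04, and 61 members were above 0 and 20 below, against 49.4% of all tested genes above 0. Then 2 members were higher at an unadjusted p of at most 0.05, against 3.41% of all tested genes, and 0 were lower, against 2.66%. The count was 34 without CTR mouse 2 (4.39% of all tested genes), 17 without CTR mouse 5 (7.04%), 4 when SD mouse 2 was left out (5.15%). Leaving out SD mouse 5 gave 6 (2.92%), and leaving out SD mouse 6 gave 0 (2.03%). All 3 SD mice were above all 3 CTR mice for 17 members, against 6.11% of all tested genes. The reverse, every SD mouse below every CTR mouse, was seen for 0 members, against 6.2% of all tested genes. The 17 became 15 without CTR mouse 1 and 42 without CTR mouse 2. The change to 15 came with filter and scaling computed anew. In the scaling of all mice, 17 members were above both CTR mouse 2 and CTR mouse 5. With a mouse fewer, groups part more easily. The share of all tested genes was not computed for these counts, so they cannot be set against the 17.

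**Figure D2:**
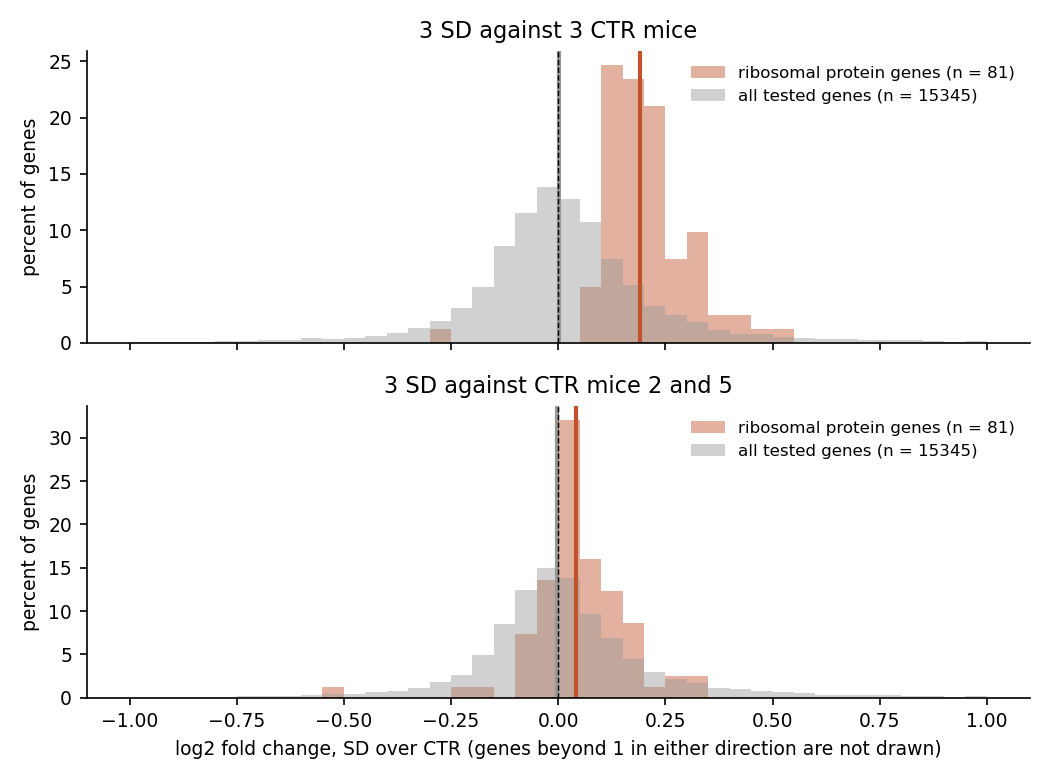
The x axis gives log2 fold changes, SD over CTR, and the y axis the percent of genes per bin, for the 81 ribosomal protein genes (red) and all tested genes (grey), with a vertical line at each median. With 3 CTR mice (upper panel) the medians are 0.19 and 0.00, and without CTR mouse 1 (lower panel) the red median is 0.04.

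Among the 8 members, Rpl41, which encodes a very short basic peptide of the large subunit, had the largest fold change. It had 44.7, 49.5 and 57.1 CPM in SD mice 2, 5 and 6, against 20.8, 41.2 and 42.5 CPM in CTR mice 1, 2 and 5. The groups did not overlap, and CTR mouse 1 lay far below the other 5 mice. The log2 fold change was 0.53 ± 0.22 (SE; edgeR adjusted p = 0.58), and 0.27 without CTR mouse 1. This was the 1 of the 8 that DESeq2 did not give an unadjusted p of at most 0.05.

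Rps28, a small-subunit protein at the messenger RNA exit, had 21.9, 22.9 and 29.3 CPM in SD mice 2, 5 and 6, against 14.1, 21.5 and 18.6 CPM in CTR mice 1, 2 and 5. SD mouse 2 and CTR mouse 2 were nearly level, so the groups barely parted. The fold change of Rps28 was 0.45 ± 0.16 on the log2 scale (SE; edgeR adjusted p = 0.55), and 0.30 without CTR mouse 1. Rps26, its neighbour at the exit, had 50.3, 49.0 and 56.4 CPM in SD mice, against 30.1, 44.3 and 46.7 CPM in CTR mice. Here too the groups parted and CTR mouse 1 was lowest. For Rps26 the log2 fold change was 0.36 ± 0.15 (SE; edgeR adjusted p = 0.57), and 0.19 without CTR mouse 1.

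Rpl36, a protein of the large subunit, had 29.0, 26.1 and 30.3 CPM in SD mice 2, 5 and 6, against 15.3, 24.9 and 23.1 CPM in CTR mice 1, 2 and 5. It was the other member, beside Rpl41, that kept an unadjusted p of at most 0.05 without CTR mouse 1. The log2 fold change of Rpl36 was 0.43 ± 0.16 with all mice and 0.24 without CTR mouse 1. Rpl23, which lies at the face between both subunits, had 59.8, 61.5 and 61.0 CPM in SD mice, against 37.0, 52.2 and 56.0 CPM in CTR mice. The SD mice were close to each other and the CTR mice were spread, and Rpl23 had a log2 fold change of 0.33 ± 0.13 (SE), and 0.16 without CTR mouse 1. Rpl27, also of the large subunit, had 15.1, 15.8 and 18.2 CPM in SD mice, against 10.9, 15.0 and 13.7 CPM in CTR mice, with a log2 fold change of 0.31 ± 0.14 (SE), and 0.19 without CTR mouse 1. SD mouse 2 and CTR mouse 2 were nearly level.

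The stalk of the large subunit, which recruits the elongation factors, is formed by Rplp0 and by pairs of Rplp1 and Rplp2. Rplp0 had 106, 97.1 and 103 CPM in SD mice 2, 5 and 6, against 80.3, 96.1 and 82.9 CPM in CTR mice 1, 2 and 5. In this gene CTR mice 1 and 5 were both low, and CTR mouse 2 was just under SD mouse 5. The log2 fold change was 0.24 ± 0.088 (SE; edgeR adjusted p = 0.55), and 0.19 without CTR mouse 1. Rplp1 had 324, 294 and 321 CPM in SD mice, against 179, 303 and 283 CPM in CTR mice, so that the groups overlapped. Rplp2 had 95.2, 87.6 and 84.8 CPM in SD mice, against 53.6, 81.0 and 84.1 CPM in CTR mice, with no overlap but a margin of less than 1 CPM. Neither had an unadjusted edgeR p of at most 0.05, although DESeq2 gave Rplp2 one. Rplp1 had a log2 fold change of 0.30 ± 0.16 (SE), and 0.09 without CTR mouse 1. Rplp2 had one of 0.29 ± 0.15 (SE), and 0.11 without CTR mouse 1.

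**Figure D3:**
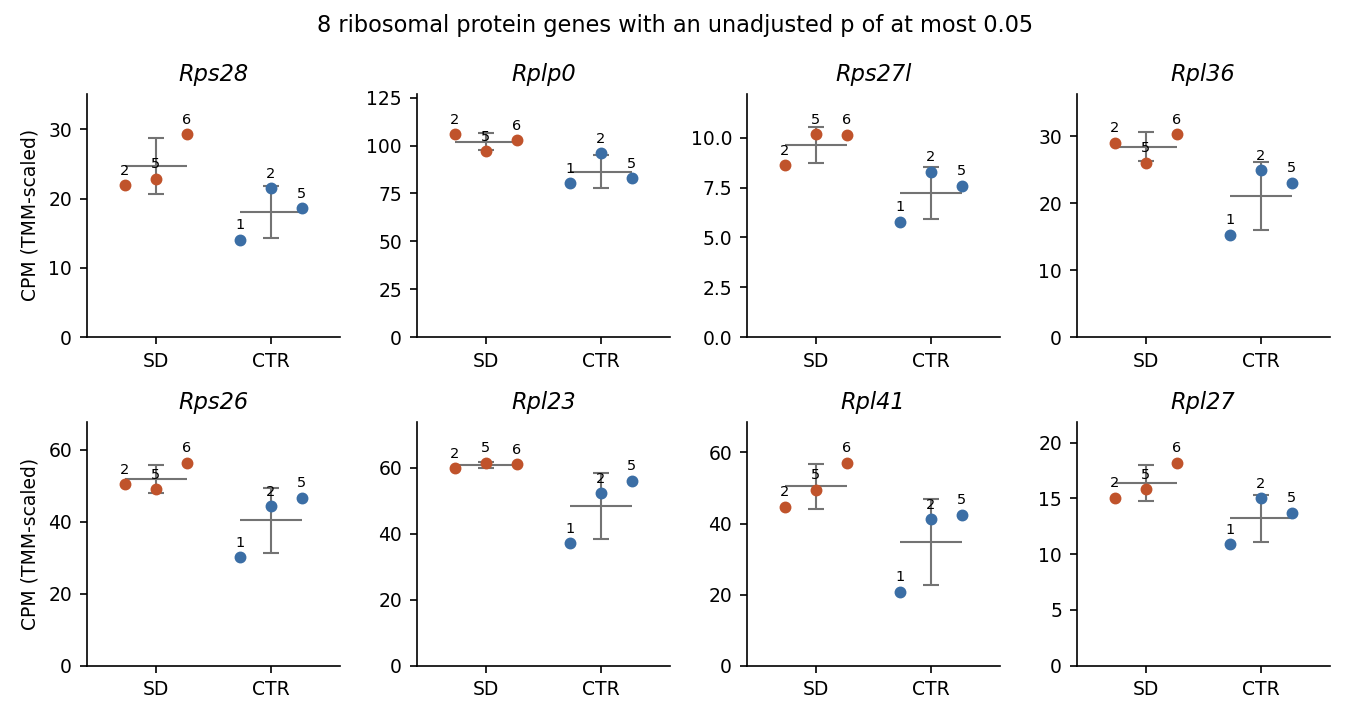
Panels show the 8 ribosomal protein genes with an unadjusted p of at most 0.05, as CPM (y axis, from 0) in each mouse, with mouse numbers beside the points, SD in red left of CTR in blue, and grey lines at the mean ± standard deviation of 3 mice. SD mice are above CTR mice in every panel, and CTR mouse 1 is the lowest point of each.

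Rps6 and Rpsa, members known beyond the ribosome, did not pass the test. Rps6, the substrate of the S6 kinases, had 43.0, 41.6 and 40.8 CPM in SD mice 2, 5 and 6, against 29.6, 39.4 and 43.8 CPM in CTR mice 1, 2 and 5. The log2 fold change of Rps6 was 0.15 ± 0.13 (SE; edgeR adjusted p = 0.80), and 0.00 without CTR mouse 1. Rpsa, a small-subunit protein that is also known as the precursor of the laminin receptor, had 55.8, 52.1 and 45.0 CPM in SD mice, against 39.7, 52.3 and 45.4 CPM in CTR mice. The groups overlapped, with a log2 fold change of 0.15 ± 0.12 (SE; edgeR adjusted p = 0.77), and 0.06 without CTR mouse 1. Message levels say nothing about phosphorylation or translation of these genes.

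The 5 members with the most counts were likewise lowest in CTR mouse 1. Rpl4, whose protein lines the exit tunnel, had 478, 457 and 449 CPM in SD mice 2, 5 and 6, against 366, 448 and 472 CPM in CTR mice 1, 2 and 5. Its log2 fold change was 0.11 ± 0.098 (SE), and 0.00 without CTR mouse 1. Rps3, near the entry of the messenger RNA, had 308, 297 and 297 CPM in SD mice, against 210, 306 and 284 CPM in CTR mice. CTR mouse 1 was the one low library, and the log2 fold change of 0.17 ± 0.12 became 0.02 without it. Rpl8, close to the peptidyl transferase centre, had 238, 243 and 246 CPM in SD mice, against 182, 254 and 240 CPM in CTR mice. The log2 fold change of Rpl8, 0.10 ± 0.11, turned to -0.03 without CTR mouse 1. Rpl13a, which in human cells can also leave the ribosome to silence inflammatory messages, had 245, 239 and 245 CPM in SD mice, against 162, 253 and 221 CPM in CTR mice. For Rpl13a the log2 fold change was 0.20 ± 0.14 (SE), and 0.03 without CTR mouse 1. Rplp1, given above with the stalk, is the fifth.

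A comparison of levels between genes needs a length scale, so CPM were divided by the length in kb of 1 annotated transcript per gene (GENCODE, principal isoform). The median over members was 65.9 CPM per kb. Rplp1 was highest with 569 CPM per kb, followed by Rps15 (325), Rpl4 (289), Rps29 (280) and Rpl8 (275). Rps15 and Rps29 were named after their values were seen. At the low end were Rpl30 (0.616 CPM per kb), Rpl34 (1.22) and Rps27 (2.76). Their raw counts were few. Rpl30, a large-subunit protein, had 9, 6 and 14 counts in SD mice 2, 5 and 6, against 5, 13 and 12 counts in CTR mice 1, 2 and 5. Rpl34 had 16, 13 and 27 counts in SD mice, against 5, 22 and 17 counts in CTR mice. Rps27 had 24, 40 and 25 counts in SD mice, against 18, 20 and 33 counts in CTR mice. No difference was detectable at counts this low. Rpl30, the only member with a negative log2 fold change, had -0.26 ± 0.44 (SE, edgeR adjusted p = 0.91).

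Levels per kb thus ran from 0.616 to 569 CPM per kb, although the ribosome holds its proteins in nearly equal numbers, and near-identical copies can bear on such levels. Ribosomal protein genes have many processed pseudogenes, and the reads that fit several genes were counted. Of the 50-base words of a member's transcripts, a median of 52.3% also occurred in transcripts of another annotated gene, with a highest share of 98.6% (Rps27). The share was over 50% for 44 members. The 12 members that shared 0% to 25% of their words had a median level of 39.1 CPM per kb and the 20 that shared 75% to 100% had 65.1 CPM per kb. Across the 81 genes, which share libraries and are not independent, Spearman's rho between the share and CPM per kb was -0.07. From the least to the most sharing, the median log2 fold change was 0.16 (12 genes), 0.23 (25 genes), 0.20 (24 genes) and 0.15 (20 genes). Exons of 28 members overlapped another gene on the same strand, mostly small nucleolar RNAs, and levels of single members remain uncertain for these reasons.

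Several members have a second gene for a like protein. Rps27l, a paralogue of Rps27 that p53 can induce, had 8.62, 10.2 and 10.2 CPM in SD mice 2, 5 and 6, against 5.78, 8.29 and 7.59 CPM in CTR mice 1, 2 and 5. The groups did not overlap, and the log2 fold change was 0.42 ± 0.16 (SE; edgeR adjusted p = 0.55), and 0.28 without CTR mouse 1. Rps27l stood at 16.9 CPM per kb, above the 2.76 CPM per kb of Rps27, which shared nearly all of its sequence with other genes.

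Rpl22l1, the paralogue of the RNA-binding protein Rpl22, had 34.9, 36.5 and 31.0 CPM in SD mice 2, 5 and 6, against 21.7, 37.2 and 38.4 CPM in CTR mice 1, 2 and 5. CTR mice 2 and 5 were above all SD mice, and the log2 fold change of 0.07 ± 0.18 turned to -0.15 without CTR mouse 1. Rpl22 had 112, 109 and 106 CPM in SD mice, against 85.7, 99.9 and 104 CPM in CTR mice, with a log2 fold change of 0.18 ± 0.087 (SE; edgeR adjusted p = 0.63), and 0.10 without CTR mouse 1. Its groups did not overlap, and Rpl22l1 stood at 60.3 and Rpl22 at 217 CPM per kb.

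Of the other pairs, Rpl7l1 had 46.0, 49.8 and 47.9 CPM in SD mice 2, 5 and 6, against 41.2, 46.0 and 43.6 CPM in CTR mice 1, 2 and 5. CTR mouse 1 was close to the rest for Rpl7l1, and its log2 fold change was 0.14 ± 0.083 (SE), and 0.10 without CTR mouse 1. Rpl7 had 126, 120 and 109 CPM in SD mice, against 86.0, 114 and 123 CPM in CTR mice, so its groups overlapped. Rpl36al had 9.39, 8.43 and 8.60 CPM in SD mice, against 6.75, 8.74 and 7.55 CPM in CTR mice. Rpl36a, which is on the X chromosome, had 37.9, 38.4 and 39.0 CPM in SD mice, against 17.0, 34.9 and 40.6 CPM in CTR mice. CTR mouse 1 was again the lowest of both genes, and CTR mouse 5 was the highest for Rpl36a. Rps4x, also X-linked, had 95.2, 96.4 and 89.7 CPM in SD mice, against 63.1, 89.1 and 91.0 CPM in CTR mice, with CTR mouse 5 within the range of the other 5 mice. Rps4l, annotated by GENCODE as a transcribed processed pseudogene, had 20.8, 15.2 and 24.3 CPM in SD mice, against 14.1, 17.7 and 14.8 CPM in CTR mice. The groups overlapped, with a log2 fold change of 0.37 ± 0.17 (SE; edgeR adjusted p = 0.60).

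A pair of members with a role outside the ribosome was read as well, chosen after their values were seen. Rpl5 and Rpl11 form, with 5S ribosomal RNA, the particle that restrains Mdm2 when ribosome assembly fails. Rpl5 had 91.2, 91.3 and 77.3 CPM in SD mice 2, 5 and 6, against 67.5, 82.8 and 86.0 CPM in CTR mice 1, 2 and 5. Rpl11 had 74.5, 70.7 and 66.7 CPM in SD mice, against 51.9, 73.0 and 69.7 CPM in CTR mice. Both had overlapping groups. For Rpl5 the log2 fold change was 0.14, and 0.03 without CTR mouse 1. For Rpl11 it was 0.12, and -0.02 without CTR mouse 1.

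Members with and without a TOP tract at an annotated start had like medians. The median log2 fold change was 0.19 over the 13 with the tract at the start and 0.19 over the 47 whose windows had none at the start. CTR mouse 1 was at a median deviation of -0.41 in the 13 genes and -0.45 in the 47. Because an annotated start can be a few bases off, the 47 may hold TOP messages too. These medians therefore do not compare messages with and without TOP control.

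The members are short, and CTR mouse 1 was low for other short transcripts too. The median annotated transcript length was 774 bases over members, against 2851 bases over all tested genes. Of the 81 members, 61 had transcripts under 1 kb. The 1036 other genes under 1 kb had a median deviation of -0.22 in CTR mouse 1, against -0.08 for 1 to 2 kb, 0.00 for 2 to 4 kb and 0.08 for over 4 kb. Members under 1 kb were at -0.47, and the 16 members of 1 to 2 kb at -0.41, both lower than other genes of their length. In the other 5 mice the medians of other genes under 1 kb lay between -0.01 and 0.10.

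By length class, the members under 1 kb had a median log2 fold change of 0.20, against 0.13 for other genes under 1 kb. Without CTR mouse 1 these medians were 0.04 and 0.05. For 1 to 2 kb they were 0.18 for the members and 0.06 for other genes, and 0.03 and 0.03 without CTR mouse 1. The part of transcript length and of the Rn45s share of CTR mouse 1 in the lower member counts was not tested.

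**Figure D4:**
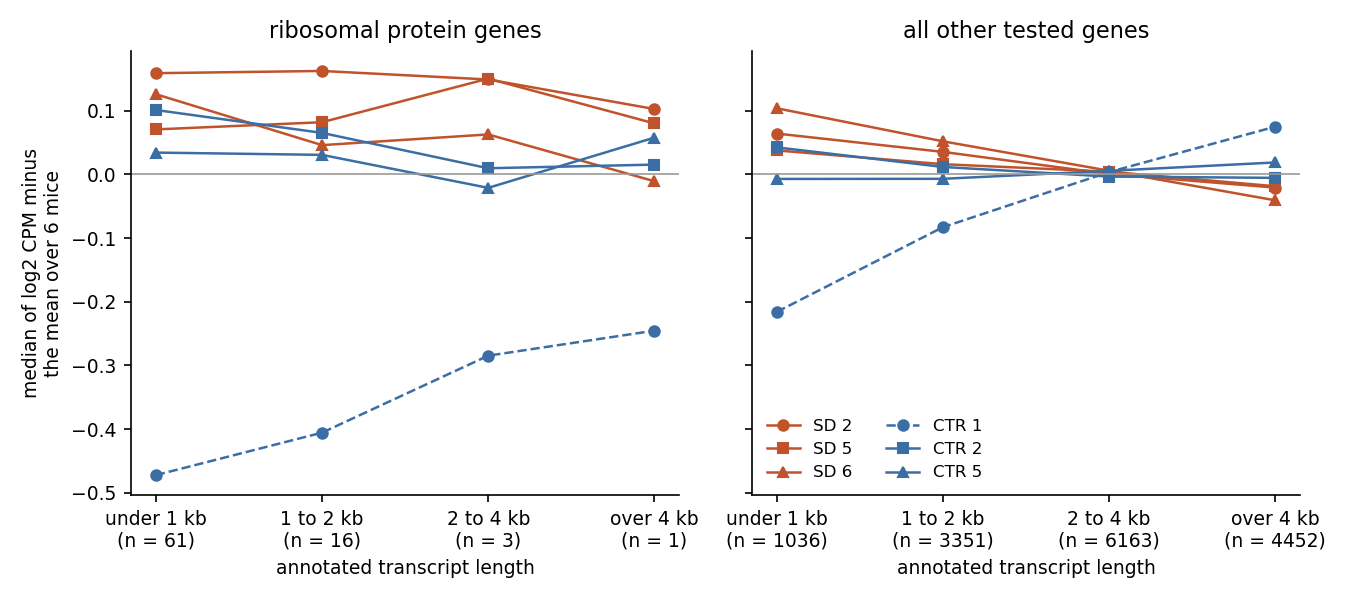
The median of log2 CPM minus the mean over 6 mice (y axis) is plotted by annotated transcript length (x axis) for ribosomal protein genes (left panel) and all other tested genes (right panel), 1 line per mouse. The dashed line of CTR mouse 1 runs from -0.22 under 1 kb to 0.08 over 4 kb among other genes and lies at -0.47 and -0.41 in the 2 shorter classes of members.

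Other genes of the ribosome and of translation were read from lists in the same fit. Fau, which encodes a ribosomal protein fused to a ubiquitin-like protein, and Rack1, a scaffold on the small subunit, were both lowest in CTR mouse 1. Fau had 79.5, 68.6 and 72.5 CPM in SD mice 2, 5 and 6, against 50.0, 77.9 and 62.3 CPM in CTR mice 1, 2 and 5. Rack1 had 179, 175 and 183 CPM in SD mice, against 140, 187 and 162 CPM in CTR mice. The groups overlapped in both, and neither had an unadjusted p of at most 0.05. On the log2 scale the fold change was 0.21 ± 0.14 for Fau and 0.14 ± 0.10 for Rack1 (SE), but 0.07 and 0.03 without CTR mouse 1.

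The nuclear-encoded subunits of oxidative phosphorylation, another family of short abundant messages, had similar values. Their median log2 fold change was 0.19 over 89 genes, of which 86 were above 0, and 0.05 without CTR mouse 1. CTR mouse 1 was lowest for 81 of them, at a median deviation of -0.37. Of the 89, 13 were higher at an unadjusted p of at most 0.05 and 2, Cox8b and Cox7a1, passed the cutoffs of the study. Leaving out CTR mouse 1, 3 of the 89 were higher at that p. Over all tested genes 4.65% were higher with all mice and 3.41% without CTR mouse 1. With all mice 2.98% of all tested genes passed the cutoffs, 50.4% were above 0, and CTR mouse 1 was lowest for 22.9%. Cox8b had 0.931, 4.53 and 4.37 CPM in SD mice 2, 5 and 6, against 0.351, 0.412 and 1.45 CPM in CTR mice 1, 2 and 5. Cox7a1 had 1.94, 1.83 and 2.63 CPM in SD mice, against 1.05, 1.48 and 1.18 CPM in CTR mice. Both encode muscle-type subunits of cytochrome c oxidase and had few counts.

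The mitochondrial ribosomal protein genes had a smaller median log2 fold change, 0.10 over 78 genes, and 0.02 without CTR mouse 1. Above 0 were 74 of them, against 50.4% of all tested genes. The median deviation of CTR mouse 1 was -0.20. At an unadjusted p of at most 0.05, 2 of the 78 were higher, against 4.65% of all tested genes. These were Mrpl57 and Mrpl27, with log2 fold changes of 0.29 ± 0.11 and 0.23 ± 0.10 (SE). Of the 78, 0 were higher at that p without CTR mouse 1, against 3.41% of all tested genes.

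For factors that act on the ribosome the medians were small. The median log2 fold change was 0.05 over 42 initiation factor genes and 0.05 over 10 elongation factor genes, and -0.01 for each list without CTR mouse 1. By edgeR none of either list had an unadjusted p of at most 0.05, against 4.65% of all tested genes higher and 3.68% lower. By DESeq2 Eef1a1 had such a p. Without CTR mouse 1 edgeR gave 1 elongation factor gene, Eif5a2, lower, against 2.66% of all tested genes. Its log2 fold change was then -0.30, and -0.17 with all mice, and it was named after its values were seen. Eef1a1, which delivers aminoacyl-tRNA and whose message has a TOP tract, had 798, 796 and 966 CPM in SD mice 2, 5 and 6, against 664, 782 and 762 CPM in CTR mice 1, 2 and 5. The groups did not overlap, with a log2 fold change of 0.21 ± 0.10 (SE; edgeR adjusted p = 0.62), and 0.14 without CTR mouse 1. Among 15 other messages known for a TOP tract the median was 0.08, and 0.02 without CTR mouse 1. Of these, 1 was higher at an unadjusted p of at most 0.05, against 4.65% of all tested genes. That gene was Ybx1, an mRNA-binding protein, with 77.1, 82.5 and 92.3 CPM in SD mice, against 66.1, 69.2 and 71.7 CPM in CTR mice. For Ybx1 the log2 fold change was 0.28 ± 0.087 (SE; edgeR adjusted p = 0.51), and 0.25 without CTR mouse 1.

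In genes that build ribosomes the medians were near 0. Over 58 ribosome biogenesis factors the median log2 fold change was 0.02, with CTR mouse 1 at a median deviation of -0.03. Of these, 0 were higher and 1 was lower at an unadjusted p of at most 0.05, against 4.65% and 3.68% of all tested genes. That was Mdn1, an ATPase that strips factors from the maturing large subunit, with 72.3, 71.8 and 68.5 CPM in SD mice 2, 5 and 6, against 96.8, 76.6 and 78.6 CPM in CTR mice 1, 2 and 5. Its message is long, and here CTR mouse 1 was the highest. Over 15 genes of RNA polymerase I and its factors the median was -0.03, with CTR mouse 1 at 0.01. Of them 1, Polr1d, was higher at that p, against 4.65% of all tested genes (log2 fold change 0.29 ± 0.11, SE). Its value was 0.19 without CTR mouse 1, and then neither Mdn1 nor Polr1d had such a p. The 13 small nucleolar RNA host genes had a median of 0.02, and -0.08 without CTR mouse 1, with none at an unadjusted p of at most 0.05 and CTR mouse 1 at -0.23.

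Genes listed as S6 kinases and S6 phosphatases, by symbol and not by a known action on Rps6, had a median log2 fold change of -0.04 over 17 genes. At an unadjusted p of at most 0.05, 2 of them were lower, against 3.68% of all tested genes, and none was higher. These were Rps6ka3 and Rps6ka4, which encode kinases downstream of MAPK signalling. Their log2 fold changes were -0.24 ± 0.089 and -0.23 ± 0.097 (SE; edgeR adjusted p = 0.55 and 0.58). Of 11 p53 targets and nucleolar stress genes, 2 were higher at that threshold, against 4.65% of all tested genes, and the median was 0.06. They were Phlda3 (0.37 ± 0.15, SE) and Gtse1 (0.83 ± 0.35, SE). Neither kept that p without CTR mouse 1, and of both kinases Rps6ka3 did. The 2 pseudogenes listed by a ribosomal protein name, Rps19-ps3 and Rpl14-ps1, had log2 fold changes of -0.11 ± 0.22 and 0.08 ± 0.19 (SE), and -0.14 and -0.11 without CTR mouse 1.

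**Figure D5:**
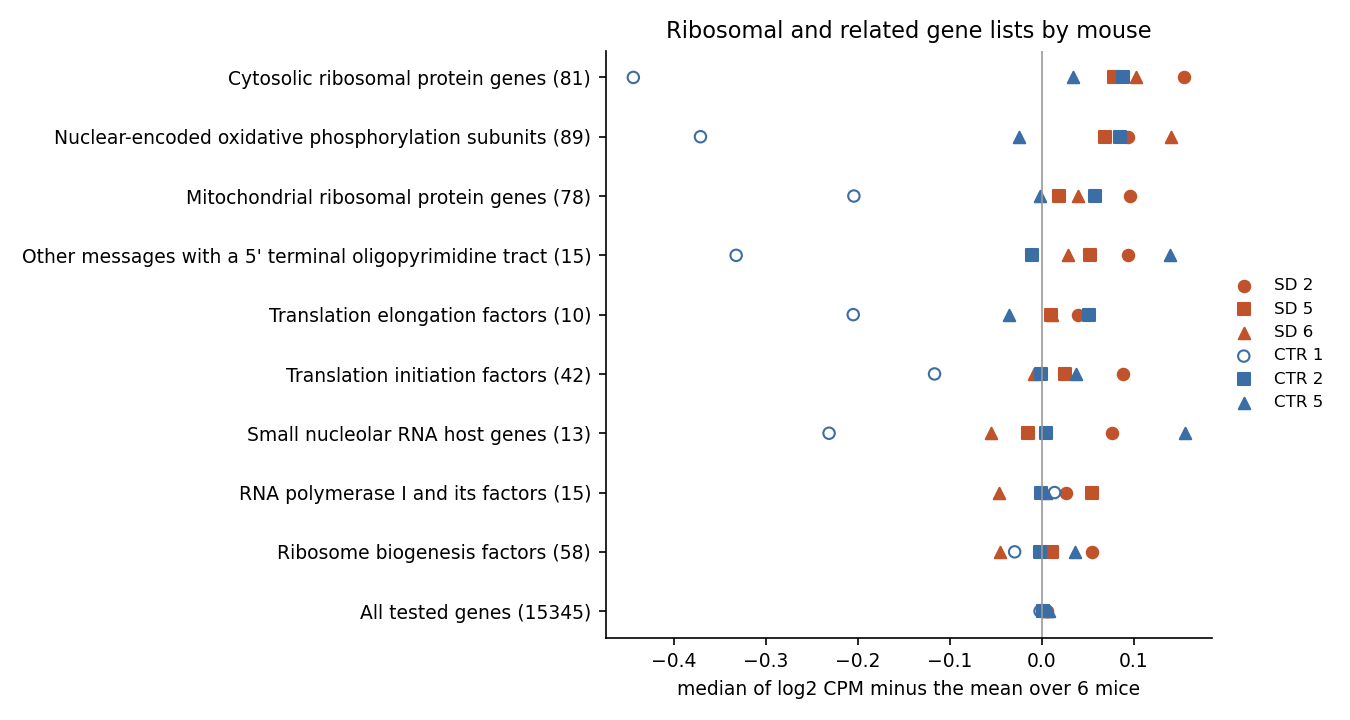
Each row is a gene list with its number of tested genes, and each symbol is 1 mouse (SD red, CTR blue, open circle for CTR mouse 1), placed on the x axis at the list's median of log2 CPM minus the mean over 6 mice. CTR mouse 1 is at -0.44 for cytosolic ribosomal proteins, -0.37 for oxidative phosphorylation, -0.20 for mitochondrial ribosomal proteins and -0.03 for ribosome biogenesis factors.

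Markers of other tissue also differed between the groups, with another order of mice for the choroid plexus and thalamic markers. Of 15 choroid plexus markers, 14 passed the cutoffs of the study as higher in SD mice. Of all tested genes 2.98% passed these cutoffs in either direction. Their summed level ranged from 4036 to 11340 CPM in SD mice and from 427 to 4718 CPM in CTR mice, and none was at 0. CTR mouse 2 had the lowest choroid plexus sum, 427 CPM, and a median member deviation of 0.09. With the mean of the choroid plexus list as a covariate the members' median log2 fold change was 0.36. In that fit 4 members passed the cutoffs, for which no share of all tested genes was computed. At an unadjusted p of at most 0.05, 24 members were higher, against 2.82% of all tested genes. The choroid plexus list itself differed between the groups, so the fit cannot tell it apart from the light cycle. Of 11 thalamic markers, 7 passed the cutoffs as lower in SD mice, with a summed level of 178 to 229 CPM in SD mice and 200 to 379 CPM in CTR mice. Of 7 hypothalamic markers in the table (6 more on the list were not in it), 3 passed as higher, with 187 to 235 CPM in SD mice and 178 to 203 CPM in CTR mice. Of 10 oligodendrocyte markers, 8 were higher at an unadjusted p of at most 0.05, against 4.65% of all tested genes. Their summed level was 9356 to 11214 CPM in SD mice and 7394 to 9488 CPM in CTR mice. As in the members, their median deviation was lowest in CTR mouse 1 (-0.33), with CTR mouse 5 next at -0.28. Of the other lists, 3 of 10 markers of ependyma passed the cutoffs as higher, 1 of 10 of leptomeningeal fibroblasts was higher and 1 lower, and 0 of 10 each passed for microglia, endothelial cells and astrocytes. The part of the choroid plexus, thalamic, hypothalamic and oligodendrocyte markers in the member values was not tested.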

How the data were processed

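Polyadenylated RNA of 3 SD and 3 CTR mice was sequenced. The authors trimmed reads with Trim Galore, aligned them to mm10 with HISAT2 (default settings) and obtained gene counts with featureCounts in a strand-aware mode that also counts multi-mapping reads. The deposited counts are whole numbers without normalization, and each gene has at least 40 over the 6 mice. Fold changes and p-values of the authors stand beside them in the table and were left aside. The submitters' processing notes also name SAMtools, Picard and DESeq2. For these tools no version was stated, nor the annotation used for counting. Nothing says whether mice of a group shared a litter, so p-values measure the spread between these mice.

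Counts were filtered with filterByExpr (78 genes removed) and scaled by TMM. SD was tested against CTR without covariate by the quasi-likelihood F test of edgeR 4.0.16 in R 4.3.3, with Benjamini-Hochberg adjustment over the 15345 tested genes. DESeq2 1.42.0 was an alternative. A standard error is the fitted log2 fold change over the root of F. Deviations are of log2 CPM (prior count 2) from the mean of the 6 mice. The edgeR step was tested on simulated data. Shared words of 50 bases and transcript lengths came from GENCODE transcripts of the same build, and start windows from RefSeq, from 250 bases before to 50 bases after each start. Alternatives were other scalings and filters, each mouse left out, a replicate block and a choroid plexus covariate. The members, gene lists and tests were chosen with earlier results of these data known.

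Members named were those with an unadjusted p of at most 0.05, at most 8 in each direction, the 3 of largest fold change in each direction among members with a mean count of at least 50, the 5 of highest and 3 of lowest counts, Rps6, Rpsa, the stalk genes, and paralogues beside their parent genes. From each related list the 2 genes of smallest p, and Fau, Rack1 and Eef1a1, could be named. Not every gene that this rule picks is reported here. Genes named as the end of a range, as sequence examples or as marked in the text were named after their values were seen.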

Additional observations from a re-analysis of the deposited data

How the results depend on the processing

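Under DESeq2 size factors, TMM factors computed without the members, no filter, a mean count of at least 50, and omission of Rn45s and the choroid plexus list, the median log2 fold change of the members was 0.19 each time and no count of calls moved by over 1.5 times. DESeq2 raised the count higher at an unadjusted p to 14. The choroid plexus covariate gave 4 members at the study's cutoffs, with no share of all tested genes computed. It gave 24 higher at an unadjusted p, against 2.82% of all tested genes, and turned Rpl30 (0.17) and Rps27 (-0.041). With a replicate block for the numbers 2 and 5, which occur in both groups, the median was 0.05. The count higher at an unadjusted p was then 0, against 3% of all tested genes. Rpl8 (-0.039), Rpl34 (-0.45) and Rpl22l1 (-0.084) were reversed. Mice whose number occurs in only 1 group, CTR mouse 1 among them, add nothing to the difference in that fit. The same-numbered mice share only a number (correlation of their deviations 0.21 and 0.12).

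With each mouse left out in turn, the median ranged from 0.04 to 0.30, the log2 ratio of summed levels from 0.04 to 0.29, the count at the cutoffs from 0 to 2, the count higher at an unadjusted p from 0 to 34, the members with all SD mice above all CTR mice from 15 to 42, and those with all SD mice below from 0 to 1. Groups part more easily with a mouse fewer, and each of these fits had its own filter and scaling. For the separated counts and those at the cutoffs, shares of all tested genes were not computed with a mouse left out. Counts after adjustment and of members lower at an unadjusted p were 0 throughout. Without CTR mouse 1, 20 members were below 0. Among the 27 members named by rule, those that changed sign with a mouse left out ranged from -0.032 to 0.20 (Rpl8), -0.52 to 0.026 (Rpl30), -0.23 to 0.61 (Rpl34), -0.14 to 0.34 (Rps27), -0.15 to 0.21 (Rpl22l1) and -0.0035 to 0.24 (Rpl7). Of 162 values of single named members with a mouse left out, 121 kept their direction and their side of the threshold. With 3 mice a group, differences of the size of the members' median are near the standard error of a single gene.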
